A study of Rattus norvegicus with 9 samples.

Results

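The genes *Ret*, *Ednrb*, *Sema3a*, *Sox5*, *Sox8* and *Snai1* of neural crest and autonomic development were followed in mRNA-seq of rat bone marrow mesenchymal stem cells (MSCs) and of the neural progenitor-like cells (NPCs) induced from them. They are 6 of the 26249 genes and transcript units in the files, and were found by the gene identifiers that the study pairs with their symbols. The value of a gene was the sum of the FPKM of its isoforms, where FPKM counts fragments by the length of the transcript and the mapped fragments of the library.

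The MSCs came from the bone marrow of 3 Sprague-Dawley rats, 4 weeks old by the study's methods, and were sequenced untreated at passage 3. NPCs were the same kind of cells after 3 days with the growth factors EGF and bFGF, and a further group had received EGF, bFGF and IGF-1 for 3 days. Each group held 3 libraries, 9 in all, prepared from 300 ng of RNA by a stranded protocol for polyadenylated transcripts. The study's methods add that NPCs grew in ultra-low attachment plates with NeuroCult NS-A medium. Cells held in that medium without growth factors were not analysed here, so that the factors, the medium and suspension culture cannot be told apart. The study's methods do not describe the culture with IGF-1, and no source says from which rats it came, so that the spread among those libraries may be technical. The cells are a bulk culture, in which fewer cells of a type and less RNA per cell cannot be told apart.

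The neural crest is a transient population of vertebrate embryos that leaves the edge of the neural tube, migrates widely, and gives rise to sympathetic, parasympathetic and enteric neurons, Schwann cells, melanocytes and part of the skeleton of the head. Its cells leave the neural epithelium through an epithelial-to-mesenchymal transition driven by Snail factors, and are kept multipotent and steered to their fates by Sox factors. Endothelin receptors, the RET receptor and class 3 semaphorins then guide their migration and survival, and mutations in *RET* or *EDNRB* cause Hirschsprung disease, in which ganglia are missing from the gut.

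Depths of 37.74 to 49.42 M reads per library were implied by the confidence intervals in the files, which give no read counts. By these intervals the 3 MSC libraries held 560, 748 and 818 reads of *Snai1*, but 1 read in all of *Ret* and 3 of *Sox8*. The labels call the source cells mesenchymal stem cells. Of the MSC surface markers listed, only *Itgb1*, an integrin subunit, and *Vcam1* could be named, and they differed. In MSCs *Itgb1* stood at 1090 ± 116 FPKM and *Vcam1* at 0.06 ± 0.0323 FPKM (SD, n = 3 each). The RNA of the neural progenitor marker *Nes* was low in every group, at 0.117 ± 0.0551 FPKM in MSCs, 0.305 ± 0.02 FPKM in NPCs and 0.294 ± 0.0328 FPKM with IGF-1 (SD, n = 3 each), and *Fabp7*, a radial glial gene, was listed at 0 in all 9 libraries. For nestin protein the study reports staining of MSCs and, from its earlier work, flow cytometry with most MSCs and NPCs positive. Protein was not measured here.

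RefSeq promoters of assembly GRCr8 were at hand for 3 of the 6 genes, *Snai1*, *Ret* and *Ednrb*. They are shown because these genes were higher in both induced groups than in MSCs, and because Snail and bHLH factors bind E-boxes. Each run gives the 250 bases before the start of the gene, 5′ to 3′ on the strand of the gene, and capitals mark any motif found on either strand among 7: the E-boxes CACCTG and also CAGCTG, the GC box GGGCGG, the CCAAT box, the TATA sequence TATAAA, the Sox factor sequence AACAAT, and the cAMP response element TGACGTCA. The coordinates are those of GRCr8 and differ from those of the files.
Snai1, chr3:176667226-176667475 on the plus strand
Snai1: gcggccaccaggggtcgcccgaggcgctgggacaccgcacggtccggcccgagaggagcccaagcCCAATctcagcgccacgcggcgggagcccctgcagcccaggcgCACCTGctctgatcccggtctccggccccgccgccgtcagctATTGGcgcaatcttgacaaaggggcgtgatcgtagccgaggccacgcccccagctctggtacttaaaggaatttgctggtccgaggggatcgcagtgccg
Ret, chr4:153040557-153040806 on the minus strand
Ret: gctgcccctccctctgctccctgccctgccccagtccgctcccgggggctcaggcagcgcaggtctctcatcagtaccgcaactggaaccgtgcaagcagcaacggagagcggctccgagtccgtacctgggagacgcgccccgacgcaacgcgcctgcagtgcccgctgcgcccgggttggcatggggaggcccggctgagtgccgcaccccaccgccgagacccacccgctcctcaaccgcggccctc
Ednrb, chr15:87086766-87087015 on the minus strand
Ednrb: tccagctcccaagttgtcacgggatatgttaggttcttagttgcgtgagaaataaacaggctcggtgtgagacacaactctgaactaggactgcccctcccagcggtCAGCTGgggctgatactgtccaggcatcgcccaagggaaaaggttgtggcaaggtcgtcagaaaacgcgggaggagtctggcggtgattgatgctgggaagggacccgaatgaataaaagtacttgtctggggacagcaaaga
The *Snai1* promoter was 69.6% G and C, with 1 CACCTG E-box and 2 CCAAT boxes, the second of them on the other strand. Of 33469 rat promoters of the same length, 15.9% held CACCTG and 34% held CCAAT. The *Ret* promoter, at 72.8% G and C, held none of the motifs. The *Ednrb* promoter was 53.2% G and C and held 1 CAGCTG, a motif found in 12% of the promoters. The median over all promoters was 51.2% G and C. No binding was measured, and a match describes letters only.

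All 6 genes were higher in NPCs than in MSCs in every library. *Sema3a*, *Ednrb*, *Sox5* and *Snai1* rose by 3.11, 2.98, 2.31 and 1.13 on the log2 scale, and *Ret* and *Sox8*, nearly silent in MSCs, lay under the minimum level for a test. Libraries of NPCs and MSCs did not overlap for any of the 6, and 27.5% of the 13696 genes tested lay higher in NPCs with no overlap. A gene was called where limma gave an adjusted p (Benjamini-Hochberg, over all genes tested) no higher than 0.05 and the log2 difference was 1 or more in size, which held for 2951 genes (21.5%). The 4 genes that could be tested were all called higher, against 11.5% of all genes tested, and the median log2 difference over all genes was 0.02. With 1 in place of 0.1 added to the FPKM, the differences shrank to 1.66 for *Sema3a* and 1.33 for *Ednrb*, and the same 4 genes were called. These genes had been picked by the study from its own comparison of 6 of these libraries, so that their direction in NPCs is not independent evidence. For *Ret* the study also reports higher levels in NPCs by RT-qPCR, a measurement not used here.

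**Figure D1:**
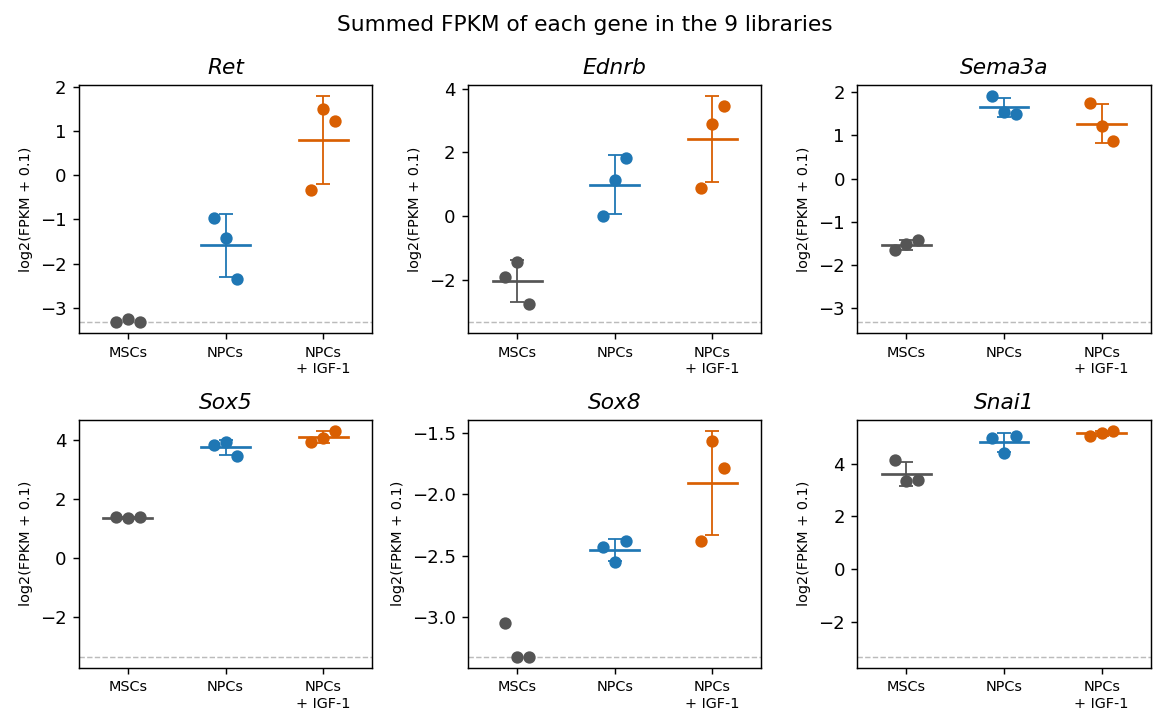
The summed FPKM of each gene, plotted as log2(FPKM + 0.1) for the 3 libraries of each group (points, libraries 1 to 3 from left to right). Bars give the mean and SD of the plotted values where no library was at 0, and the dashed line marks an FPKM of 0. MSC libraries lie below all induced libraries for each gene.

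*Ret* encodes the receptor tyrosine kinase for ligands of the GDNF family, which enteric and sympathetic neuron precursors need. The files place it on chromosome 4 from 216130625 to 216172348 on the minus strand, in a genome build not given in the sources used here. It was listed at 0 in MSC libraries 1 and 3 and at 0.00454 FPKM in library 2, a value that rested on 1 read. In NPCs it reached 0.409, 0.272 and 0.0945 FPKM in libraries 1 to 3, and with IGF-1 0.692, 2.76 and 2.24 FPKM. MSC, NPC and IGF-1 libraries thus formed 3 ranges without overlap. Against MSCs, the log2 difference of FPKM + 0.1 was 1.68 for NPCs, where *Ret* passed 0.1 FPKM in only the first 2 libraries and was not tested, and 4.08 (SE 0.5, limma adjusted p = 0.000287) with IGF-1. The added 0.1 makes both smaller than a ratio of the FPKM would be. *Ret* entered the fit of 9 libraries only through the induced libraries, which had to lie above MSCs. When no minimum level was set, the difference of NPCs from MSCs was called as well, with SE 0.34 and a limma adjusted p of 0.0134.

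Transcripts that the annotation lacks gave most of the *Ret* signal with IGF-1, at 100, 100 and 87.3% of the FPKM in libraries 1 to 3. In NPCs they gave 46.8, 68.4 and 0%, and so most of it in library 2 only. The annotated transcript, of 21 exons and 4598 bases, gave 0.218, 0.086 and 0.0945 FPKM in NPC libraries 1 to 3, from 29.7, 9.4 and 18.9 implied reads against 6, 18.2 and 0 of unannotated forms. With IGF-1 it was listed at 0 in libraries 1 and 2 and at 0.285 FPKM in library 3. In its place stood unannotated forms of 19 and 20 exons over the same gene: 0.692 FPKM of a 5050-base form in library 1, 1.52 FPKM of a 3653-base form in library 2, and 0.485 and 1.47 FPKM of forms of 5162 and 3382 bases in library 3. In library 2 a single-exon piece of 1254 bases at the 3′ end added 1.25 FPKM, and adding it counts parts of what may be 1 mRNA separately. On the annotated transcript alone the log2 difference from MSCs with IGF-1 was 0.62 in place of 4.08, and the gene was under the minimum level for a test. With the reads of all forms set over the annotated length, an alternative added after the data were seen, *Ret* stood at 0.283, 0.23 and 0.0945 FPKM in NPCs and at 0.76, 1.55 and 1.91 FPKM with IGF-1, again without overlap. Reads implied for the gene were 35.6, 27.6 and 18.9 in NPCs and 147, 244 and 229 with IGF-1.

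*Ednrb* encodes endothelin receptor B, a G protein-coupled receptor that keeps enteric and melanocyte precursors migrating and undifferentiated. The files place it on chromosome 15 from 91502602 to 91531979 on the minus strand. MSCs had 0.165, 0.264 and 0.0476 FPKM (0.159 ± 0.108, SD, n = 3) in libraries 1 to 3, from 14, 28 and 4 implied reads. NPCs had 0.896, 2.09 and 3.43 FPKM (2.14 ± 1.27). Cells with IGF-1 had 1.76, 7.25 and 11 FPKM (6.65 ± 4.63). Both induced groups lay wholly above MSCs but overlapped each other, and each spread widely, with the highest IGF-1 library 6.24 times the lowest. The log2 difference from MSCs was 2.98 (SE 0.52, limma adjusted p = 0.00438) for NPCs and 4.41 (SE 0.69, limma adjusted p = 0.00111) with IGF-1.

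Of *Ednrb*, MSCs had only the annotated transcript of 8 exons and 1994 bases. Unannotated forms of 5 to 8 exons appeared in NPC libraries 2 and 3 and in all 3 libraries with IGF-1, and they reached 4263 bases. They made up 90 and 77.1% of the FPKM in those NPC libraries, and 78, 66.6 and 64.2% with IGF-1. Most of the added length lay beyond the annotated 3′ end. On the annotated transcript alone the log2 difference of NPCs fell to 1.46 (limma adjusted p = 0.192) and that with IGF-1 to 2.82 (limma adjusted p = 0.0707), so that neither was called.

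*Edn1*, which encodes a ligand of endothelin receptors, was the other endothelin gene that could be named. It stood at 8.07, 8.09 and 10.1 FPKM in MSCs, 1.96, 4.3 and 1.85 FPKM in NPCs, and 3.12, 2.57 and 2.78 FPKM with IGF-1. It fell by 1.83 on the log2 scale in NPCs (SE 0.33, limma adjusted p = 0.00475) and fell by 1.69 with IGF-1 (SE 0.3, limma adjusted p = 0.00206). *Ednrb* and *Edn1* thus moved in opposite directions. *Edn2*, *Edn3* and *Ednra*, the last of which the study lists as higher in NPCs, could not be named. Of the 15 genes listed for GDNF signalling only *Ret* had a name in the sources used here, and of 17 semaphorin genes and receptors only *Sema3a*.

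*Sema3a* encodes a secreted semaphorin that repels axons and crest cells and is needed for sympathetic ganglia to form in place. It spans chromosome 4 from 18141779 to 18354542 on the minus strand in the files. MSCs had 0.217, 0.249 and 0.273 FPKM (0.246 ± 0.0282, SD, n = 3), a narrow range. NPCs had 3.66, 2.8 and 2.73 FPKM (3.06 ± 0.517). Cells with IGF-1 had 3.26, 2.22 and 1.72 FPKM (2.4 ± 0.787). Induced libraries lay far above all MSC libraries, and the induced groups overlapped each other. The log2 difference from MSCs was 3.11 (SE 0.25, limma adjusted p = 0.000165) for NPCs and 2.73 (SE 0.27, limma adjusted p = 7.49e-05) with IGF-1. Unannotated forms kept the 17 exons of the annotated transcript but were 3337 to 4041 bases long against 2319. They carried all of the FPKM in IGF-1 library 3, where the annotated transcript was listed at 0, and none in NPC library 3 or IGF-1 library 2. On the annotated transcript alone the difference with IGF-1 was 0.88 (limma adjusted p = 0.635), and that of NPCs remained called at 2.38 (limma adjusted p = 0.0305).

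**Figure D2:**
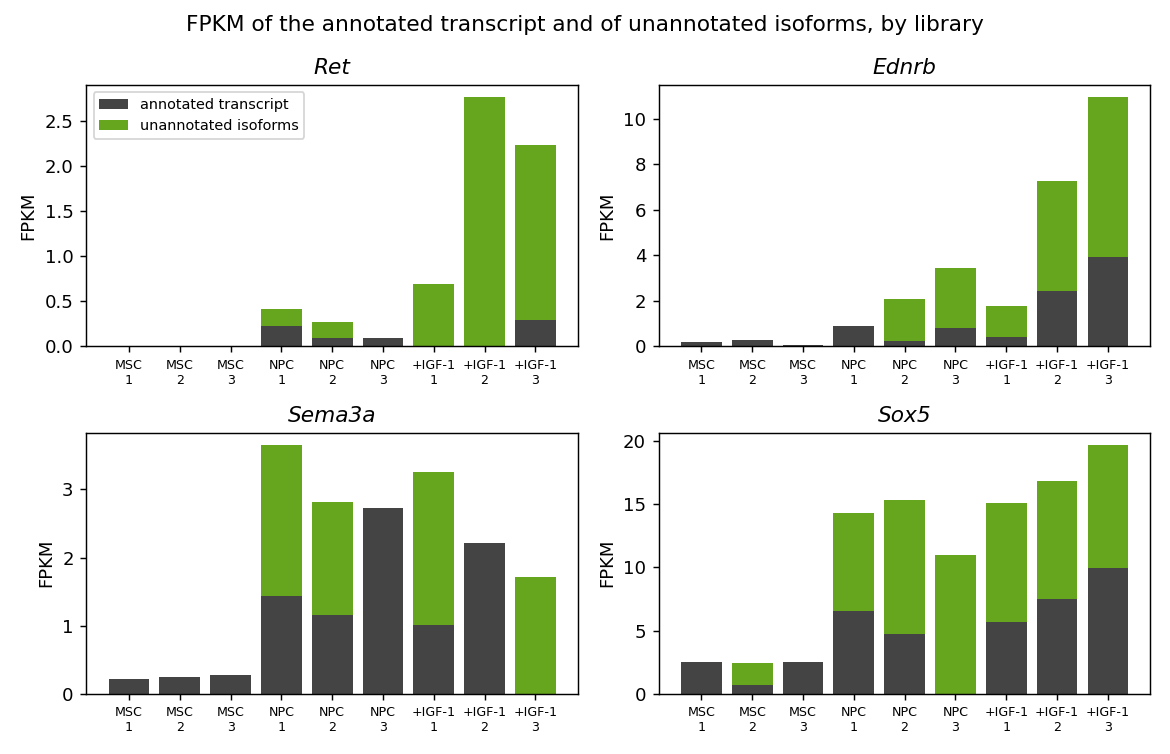
FPKM of the annotated transcript (dark) and of unannotated isoforms (green) stacked for *Ret*, *Ednrb*, *Sema3a* and *Sox5* in the 9 libraries, on separate linear axes. In MSCs unannotated isoforms appear only for *Sox5* in library 2, whereas in induced cells the 2 kinds change places from library to library.

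*Snai1* encodes a zinc finger repressor that binds E-boxes and switches off E-cadherin in the epithelial-to-mesenchymal transition. It was the most abundant of the 6 genes per kilobase in each group, and spans chromosome 3 from 170425898 to 170430382 on the plus strand. MSCs had 17.3, 9.93 and 10.2 FPKM (12.5 ± 4.2, SD, n = 3). NPCs had 31.6, 21 and 32.9 FPKM (28.5 ± 6.53). Cells with IGF-1 had 33.2, 35.3 and 37.6 FPKM (35.4 ± 2.19). The 3 ranges did not overlap, but they lay close. The lowest NPC library was near the highest MSC library, and the highest NPC library was near the lowest with IGF-1. The log2 difference from MSCs was 1.13 (SE 0.27, limma adjusted p = 0.0154) for NPCs and 1.45 (SE 0.24, limma adjusted p = 0.0015) with IGF-1. The first of these was the smallest difference called among the 6 genes. It fell to 1.04 (limma adjusted p = 0.0602) without NPC library 1, to 0.99 (limma adjusted p = 0.0461) without NPC library 3 and to 0.95 (limma adjusted p = 0.0456) without MSC library 2, and so was no longer called. The annotated transcript of 3 exons and 1594 bases carried all of the FPKM in 7 libraries. In MSC library 1 a single-exon form of 1012 bases took 53.7% of it, and in NPC library 1 another of 2174 bases took 26.4%.

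Besides *Snai1*, only *Vim* and *Snai3* could be named of 16 genes listed for the epithelial-to-mesenchymal transition. They did not move alike. *Vim*, the mesenchymal intermediate filament, stood at 2730 ± 246 FPKM (SD, n = 3) in MSCs, 766 ± 104 FPKM in NPCs and 752 ± 107 FPKM with IGF-1. It fell by 1.92 on the log2 scale in NPCs (SE 0.17, limma adjusted p = 0.000262) and fell by 1.96 with IGF-1 (SE 0.16, limma adjusted p = 2.72e-05). *Snai3*, a paralogue of *Snai1*, had 0.108 ± 0.047 FPKM in MSCs, 0.412 ± 0.224 FPKM in NPCs and 0.787 ± 0.657 FPKM with IGF-1 (SD, n = 3 each). Its log2 difference from MSCs was 1.16 for NPCs (SE 0.43, limma adjusted p = 0.0716), not called, and 1.81 with IGF-1 (SE 0.55, limma adjusted p = 0.0279). The study reports *Snai2* as lower and *Fn1* as higher in NPCs, and neither was among the genes named here.

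*Sox5* encodes a SoxD factor, which has no activation domain of its own and which promotes cephalic crest and cartilage development with its partners. It spans chromosome 4 from 242271079 to 242371664 on the minus strand, with 7 annotated exons. MSCs had 2.51, 2.45 and 2.51 FPKM (2.49 ± 0.0384, SD, n = 3). NPCs had 14.3, 15.3 and 11 FPKM (13.5 ± 2.29). Cells with IGF-1 had 15.1, 16.8 and 19.7 FPKM (17.2 ± 2.29). MSC libraries were close together and far below the induced ones, and the induced groups overlapped at their edge. The log2 difference from MSCs was 2.31 (SE 0.18, limma adjusted p = 0.000143) for NPCs and 2.65 (SE 0.16, limma adjusted p = 6.05e-06) with IGF-1. With the reads set over the annotated length, the difference of NPCs was larger, at 3.78 (SE 0.21, limma adjusted p = 2.22e-05), because unannotated forms of 3621 to 7089 bases held most of the reads in NPCs. In NPC library 3 the annotated transcript was listed at 0 while 2 longer forms had 6.04 and 4.93 FPKM. On annotated transcripts alone the difference of NPCs from MSCs therefore turned to −0.21 (limma adjusted p = 0.954), and that with IGF-1 was 2.12 (limma adjusted p = 0.407), so that neither was called.

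In 4 induced libraries *Sox5* was joined to a gene annotated upstream of it. That gene, ENSRNOG00000042587, has no name in the sources used here, lies 82.4 kb upstream on the same strand, from 242454081 to 242589655, and has 5 annotated exons; it was chosen after its values were seen. No source used here says whether it is a gene of its own or the 5′ part of *Sox5*, so that the separate values may describe parts of 1 gene. Transcripts of 14 exons in NPC library 3 and IGF-1 libraries 1 and 3 held all 7 exons of *Sox5* and all 5 of that gene and spanned 370, 373 and 366 kb. One of 9 exons in IGF-1 library 2 shared 1 and 5 exons and spanned 303 kb. No MSC library had such a transcript. In MSC library 2 an unannotated *Sox5* form of 8 exons and 2004 bases ran upstream to 242391706, short of that gene. MSC libraries held only 142, 156 and 138 implied reads of *Sox5*, against 998 to 1660 in induced libraries. Whether a joined form was missed in MSCs for want of reads was not tested. The upstream gene had 2.69, 1.88 and 2.33 FPKM in MSCs, 17.5, 24.7 and 20.4 FPKM in NPCs, and 9.67, 10.9 and 11.9 FPKM with IGF-1, ranges that do not overlap. A joined transcript was counted only with the gene whose exons it overlapped most. That was *Sox5* in NPC library 3 (6.04 FPKM) and IGF-1 libraries 1 and 3 (9.48 and 9.69 FPKM). In IGF-1 library 2 it was the upstream gene (10.9 FPKM). The separate values, and the gap between the induced groups upstream, therefore depend on this assignment. The log2 difference of the upstream gene from MSCs was 3.05 (SE 0.21, limma adjusted p = 8.19e-05) for NPCs and 2.11 (SE 0.19, limma adjusted p = 4.21e-05) with IGF-1. Joined as 1 gene, the difference was 2.74 (limma adjusted p = 4.89e-05) and 2.43 (limma adjusted p = 6.35e-06).

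**Figure D3:**
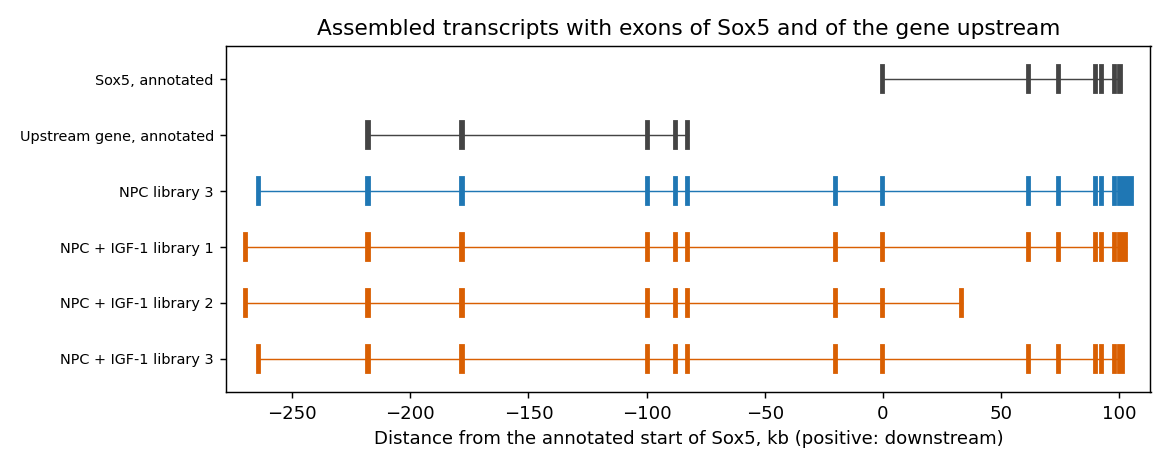
Exons (boxes, widened on the plot so that they can be seen) and introns (lines) of the annotated *Sox5* transcript, of the annotated gene upstream, and of the assembled transcripts that join them, by distance from the annotated start of *Sox5* in kb. Transcripts in NPC library 3 and in IGF-1 libraries 1 and 3 cover the 7 exons of *Sox5* and the 5 exons upstream.

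*Sox5* introns also held many short single-exon transcripts on its own strand, which were not in the sums. MSC libraries 1 to 3 had 0, 0 and 1 of them, NPC libraries 19, 66 and 18, and IGF-1 libraries 27, 18 and 26. The implied reads were 308, 1250 and 253 in NPCs and 354, 246 and 399 with IGF-1, against 11.9 in MSC library 3. Their median length was between 143 and 270 bases in the libraries that had any. Added to the sums, such short transcripts, whose FPKM are high for their few reads, would bring the log2 difference of NPCs from MSCs to 6.77 for *Sox5* and to 5.5 for *Snai1*. On the opposite strand 1 or 2 pieces were found in each induced library and 0 in MSCs. On its own strand *Snai1* had 3, 5 and 7 intronic pieces in NPCs, 6 in each library with IGF-1, and 1, 5 and 1 in MSCs. *Ret* had 1 and 2 on its own strand in IGF-1 libraries 2 and 3. Neither had any on the opposite strand, and the other genes had none on either strand.

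*Sox8* encodes a SoxE factor, kin to *Sox9* and *Sox10*, which takes part with *Sox10* in the development of enteric neurons. It spans chromosome 10 from 14745882 to 14750870 on the minus strand and was at the edge of detection. It stood at 0.0211 FPKM in MSC library 1 and was listed at 0 in the others. NPCs had 0.0855, 0.0703 and 0.0923 FPKM (0.0827 ± 0.0113, SD, n = 3), and cells with IGF-1 0.0918, 0.239 and 0.191 FPKM (0.174 ± 0.0749). The induced ranges overlapped each other and lay above MSCs. These values rested on 3 implied reads in MSC library 1, on 9 to 14.7 reads in NPCs and on 14.7 to 33.4 reads with IGF-1. *Sox8* was under the minimum level in both fits, with log2 differences from MSCs of 0.76 for NPCs and 1.3 with IGF-1. When no minimum was set, only the second was called (SE 0.22, limma adjusted p = 0.00273). Its relative *Sox9* had 4.45 ± 0.932 FPKM in MSCs, 3.68 ± 1.46 FPKM in NPCs and 6.31 ± 2.73 FPKM with IGF-1 (SD, n = 3 each), with log2 differences of −0.4 (SE 0.34, limma adjusted p = 0.39) and 0.34 (SE 0.37, limma adjusted p = 0.489).

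**Figure D4:**
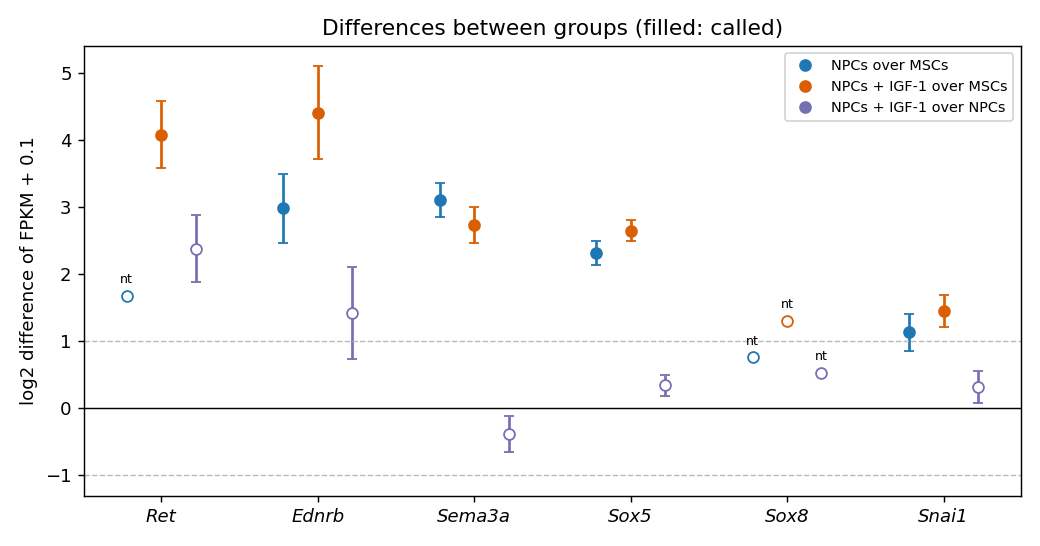
Log2 differences of FPKM + 0.1 between groups for the 6 genes, with the SE of limma where a gene was tested. Filled points were called, open points were not, and nt marks values under the minimum level. Differences from MSCs reach 4.41 for *Ednrb* with IGF-1, and no difference between the induced groups is filled.

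With IGF-1 compared with MSCs, *Ednrb*, *Sema3a*, *Sox5* and *Snai1* were called higher, as were 11.6% of the 14228 genes tested (21.4% in either direction). *Ret* was called too, but its direction was fixed by the minimum level, and *Sox8* was not tested. All 6 lay above MSCs with no overlap, as did 31.1% of all genes tested, and the median log2 difference over all genes was 0.05. With 1 added to the FPKM the differences shrank to 1.44 for *Ret*, 2.46 for *Ednrb* and 1.39 for *Sema3a*, each still called. This comparison and that of NPCs share the MSC libraries.

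Between the induced groups, none of the 6 genes was called by limma, and only 3 genes of 14228 were (0.0211%). At an unadjusted p under 0.05 there were 658 genes (4.62%), *Ret* among them. *Ret* showed the largest difference of the 6, with a mean of 1.9 ± 1.08 FPKM (SD, n = 3) with IGF-1 against 0.259 ± 0.158 FPKM in NPCs, 7.34 times as high. On the annotated transcript alone the mean with IGF-1 was 0.715 times that in NPCs, a log2 difference of −0.53 that was not tested. For the sum of all isoforms of *Ret* the log2 difference was 2.38 (SE 0.5, limma adjusted p = 0.554, unadjusted 0.00101), higher in all 3 IGF-1 libraries. *Snai1* was the other gene whose groups did not overlap, with a log2 difference of 0.32 (SE 0.24, limma adjusted p = 1), and 5.71% of all genes tested were higher with IGF-1 without overlap. For *Snai1* this rested on 32.9 FPKM in NPC library 3 against 33.2 FPKM in IGF-1 library 1. With reads set over the annotated length NPC library 1 had 34.6 FPKM, and the groups overlapped. The differences were 1.42 for *Ednrb* (SE 0.69), 0.34 for *Sox5* (SE 0.16) and −0.39 for *Sema3a* (SE 0.27), each with a limma adjusted p of 1, and 0.53 for *Sox8*, not tested.

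IGF-1 library 1 stood apart from libraries 2 and 3 for the receptors. It was the lowest IGF-1 library for *Ret*, *Ednrb*, *Sox8*, *Sox5* and *Snai1*, and the highest for *Sema3a*. Without it the log2 difference between the induced groups rose to 2.94 for *Ret* (limma adjusted p = 0.066) and to 2.18 for *Ednrb* (limma adjusted p = 0.478), still not called. Among NPCs, library 1 was the highest for *Ret* and the lowest for *Ednrb*. The 2 receptors thus ranked the NPC libraries in opposite order, with 3 libraries a group.

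Genes with a symbol and a mean of at least 1 FPKM, 1306 in all, were ranked by how closely they followed each member over the 9 libraries, by Pearson's r of log2 values. The libraries fall into induced and untreated cells, and r mostly describes that divide. *Ret* was followed most closely by *Nod1* (0.974), *Fam162a* (0.97) and *Has1* (0.967), and *Ednrb* by *Cdo1* (0.96), *Dcn* (0.956) and *Lum* (0.954). *Has1*, a hyaluronan synthase, also had its lowest IGF-1 value in library 1, at 0.841 FPKM against 3.41 and 3.06 FPKM. *Dcn*, which encodes the proteoglycan decorin, had 63.6, 187 and 332 FPKM with IGF-1, in the same order as *Ednrb*. For *Sema3a* the genes were *Itga10* (0.994), *Sema5a* (0.989) and *Cilp* (0.987), for *Sox5* *Frzb* (0.995), *Mmp3* (0.995) and *Abcg1* (0.994), and for *Snai1* *Foxc2* (0.958), *Klc3* (0.956) and *Bcl3* (0.953). Between the 5 members tested in all 9 libraries r lay between 0.668 and 0.944, lowest for *Ret* with *Sema3a* and highest for *Sema3a* with *Sox5*.

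Of the 15 genes that the study lists for autonomic development, 10 could be named, 6 of them other than the members. Of these 6, 4 of 5 tested were called higher in NPCs than in MSCs, against 11.5% of all genes tested, and 5 of 6 with IGF-1, against 11.6%. Of those called, 1 and 2 were under 0.1 FPKM in every MSC library, so that they passed the minimum level only through induced libraries and had to lie higher there. The study chose the list on these samples, so it is not independent evidence of direction. The largest difference was that of *Vcam1*, an adhesion molecule, with 0.06 ± 0.0323 FPKM in MSCs, 4.35 ± 1.84 FPKM in NPCs and 3.77 ± 0.994 FPKM with IGF-1 (SD, n = 3 each), a rise of 4.67 in NPCs (SE 0.36, limma adjusted p = 0.000134). *Vcam1* was one of the genes under the minimum in all MSC libraries. *Hes3*, a repressor of the Hes family, rose by 3.15 (SE 0.43, limma adjusted p = 0.00164) and *Egr2*, a regulator of myelination and hindbrain segments, by 2.41 (SE 0.46, limma adjusted p = 0.00658).

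Of 27 genes that specify the neural plate border and the crest, 4 could be named, and they split. *Gbx2* rose by 1.72 in NPCs (SE 0.34, limma adjusted p = 0.00764) and by 1.97 with IGF-1 (SE 0.33, limma adjusted p = 0.00171), *Dlx5* fell by 1.3 (SE 0.28, limma adjusted p = 0.0102) and fell by 1.23 (SE 0.35, limma adjusted p = 0.0208), and *Sox9* was not called. Of 23 genes of autonomic and enteric neurons, 4 were named. *Ntrk3*, the receptor of neurotrophin 3, rose by 2.77 in NPCs (SE 0.49, limma adjusted p = 0.00462) and by 2.94 with IGF-1 (SE 0.44, limma adjusted p = 0.000867), and *Gata2*, a factor of sympathetic neurons, by 1.06 (SE 0.26, limma adjusted p = 0.018) and 1.56 (SE 0.27, limma adjusted p = 0.00182). *Hand1* stayed at 0.112 FPKM or less in every library and was listed at 0 in MSCs.

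Derivatives of the crest were represented unevenly. Of 13 Schwann cell and glial markers 6 were named. *Egr2* was called in both comparisons. *S100b* was high in all groups, at 95.4 ± 5.34, 123 ± 36 and 121 ± 22.8 FPKM (SD, n = 3) in MSCs, NPCs and with IGF-1, and was not called, while *Gfap* stayed at 0.0237 FPKM or less and *Fabp7* at 0. Of 8 melanocyte markers 4 were named. *Mitf*, the master regulator of melanocytes, rose by 1.21 (SE 0.2, limma adjusted p = 0.00324) and 1.38 (SE 0.18, limma adjusted p = 0.000403), and *Mlana* fell by 2.14 (SE 0.37, limma adjusted p = 0.00448) and fell by 2.2 (SE 0.34, limma adjusted p = 0.00103). *Kit* was under the minimum level for a test in NPCs. With IGF-1 it differed by 0.82 (SE 0.29, limma adjusted p = 0.0472), too small a size to be called.

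Markers of other cell types moved with the same groups, and their part in the results was not tested. Of 11 chondrocyte markers, *Sox5*, *Sox9* and *Col11a2* were named, and *Col11a2* was called only with IGF-1, at 1.21 (SE 0.35, limma adjusted p = 0.0223). Of 9 osteoblast markers, *Dmp1* rose by 3.45 (SE 0.54, limma adjusted p = 0.00267) and 2.78 (SE 0.54, limma adjusted p = 0.00344), and *Ibsp* was not called. *Dmp1* stood at 0.0736 FPKM or less in MSCs and was tested only through the induced libraries, which had to lie higher. Of 8 smooth muscle and pericyte markers, *Tagln* fell by 6.28 (SE 0.5, limma adjusted p = 0.000165) and *Myl9* fell by 5.61 (SE 0.35, limma adjusted p = 5.69e-05) in NPCs, and *Rgs5* rose by 1.69 (SE 0.53, limma adjusted p = 0.0423). For *Rgs5* the groups overlapped, with 0.335 FPKM in MSC library 1 against 0.295 FPKM in NPC library 3. The summed FPKM of *Tagln*, *Myl9* and *Rgs5* was 5230 to 5690 in MSCs and 39.2 to 175 in induced cells. *Itgb1*, of 11 MSC surface markers, fell by 2.24 in NPCs (SE 0.17, limma adjusted p = 0.000127), and *Vcam1*, on the same list, rose as given above.

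Among 14 haematopoietic markers, *Cd68*, a lysosomal protein of macrophages, rose by 4.55 in NPCs (SE 0.26, limma adjusted p = 4e-05), from 0.344 ± 0.142 to 10.5 ± 0.925 FPKM (SD, n = 3). *Ptprc* and *Aif1*, which define leukocytes and macrophages, stood at 0.0142 FPKM or less and 0.0403 FPKM or less in all libraries, and at 0 in NPCs. The endothelial gene *Vwf*, the only one named of 8, had 0.0177 ± 0.00884 FPKM in MSCs and 0.345 ± 0.155 FPKM in NPCs (SD, n = 3 each), a rise of 1.83 (SE 0.33, limma adjusted p = 0.00482), and was not called with IGF-1. It too was tested only through induced libraries, being under 0.1 FPKM in every MSC library. Of 10 neural progenitor markers, *Prom1* fell by 2.56 in NPCs (SE 0.27, limma adjusted p = 0.000497), but it was tested only through MSCs, with 0.0277 FPKM or less in every induced library. *Nes* lay above MSCs in every induced library, by 0.89 in NPCs (SE 0.28, limma adjusted p = 0.0419) and by 0.85 with IGF-1 (SE 0.25, limma adjusted p = 0.0243), under the size of 1 asked of a call, and the added 0.1 shrinks differences at its low level. *Msi1* differed by −0.31 (SE 0.35, limma adjusted p = 0.515) and 0.1 (SE 0.35, limma adjusted p = 0.839), and was not called. No gene of these lists was called between the induced groups. Of the 200 genes in the 17 lists, 43 could be named, so that a count of called genes describes the named ones only.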

How the data were processed

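RNA from 9 libraries was measured, 3 each of MSCs, NPCs and cells induced with IGF-1. Per the labels and the submitters' processing notes, CASAVA 1.8, bcl2fastq, TopHat, Bowtie2, Cufflinks and Cuffdiff were used; their genome build was not given in the sources used here. A different pipeline in the study's methods (BBDuk, then STAR, RSEM and DESeq2) gave values that were not used here. Each file deposited by the authors lists the assembled transcripts of 1 library with a Cufflinks score, which was not used, and with FPKM in its attribute text, scaled by the authors within the library. The FPKM of annotated transcripts and of unannotated ones sharing exons on the same strand were added per gene, and single-exon unannotated transcripts within introns were kept apart. The 29145 annotated transcripts gave 20973 genes with an identifier. Depth and reads were implied from the 95% confidence intervals of FPKM and cover counting error only; whole reads could not be recovered.

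Libraries were scaled with size factors (median of ratios, 0.8721 to 1.062). Values of log2(FPKM + 0.1) were tested with limma 3.58.1 under R 4.3.3, using lmFit and a robust eBayes with trend (two-sided); the pseudocount shrinks differences of low genes. Genes that reached 0.1 FPKM in under 3 libraries of the fit, or with no annotated transcript as long as 300 bases, were not tested. The fit for NPCs against MSCs used their 6 libraries, and the other fits used all 9. Python 3.11.15 with pandas 2.3.3, numpy 2.4.6 and matplotlib 3.10.9 did the rest. The fits were tested on simulated data. FPKM are given as deposited. An FPKM of 0 is written as listed at 0, since it can be a failed estimate. Symbols came from the study's tables, naming 2452 of the genes found. Of the 43 list genes named, 18 came from a table in order of gene ID and the others from tables of genes that the study called, so that counts over the lists are not independent of its calls. The 6 genes and the lists were chosen with earlier results of these data known. The text names the 6 genes, the 3 genes most like each by r, and up to 4 genes per list, first by called change and then by FPKM; some genes that this rule covers are not reported here. MSCs and NPCs came from 3 rats, but no source ties a replicate number to a rat or names the rats of the IGF-1 group. Alternatives were other pseudocounts, filters, scalings and sets of libraries or transcripts, a replicate block, and leaving out each library in turn. Reads over a fixed length and *Sox5* joined with the gene upstream were added after the data were seen.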

Additional observations from a re-analysis of the deposited data

Results flagged for a closer look

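Transcripts outside the summed FPKM were found in introns of *Sox5* in induced cells, and in those of *Snai1* with IGF-1, above the level of MSCs, the untreated controls. Single-exon unannotated transcripts within introns of *Sox5*, on its own strand, numbered at least 18 in every NPC library and at least 18 in every library with IGF-1, against 1 in the highest MSC library. On the other strand of *Sox5* the lowest NPC library had 1 and the lowest IGF-1 library had 1, against 0 in MSCs. Within introns of *Snai1* the lowest IGF-1 library had 6 on the strand of the gene, against 5 in the highest MSC library, whereas NPC libraries, with 3, 5 and 7, overlapped MSC libraries, with 1, 5 and 1. No test was run on these numbers, and their cause was not tested.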

How the results depend on the processing

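Over the comparisons and alternatives run for the 6 genes, 264 values were tested both as reported and under the alternative, of which 252 kept direction and side of the threshold, 7 lost the call and 5 reversed. A further 81 were not tested in one or both, of which 3 lost the call, 3 gained it, 1 reversed and 74 kept their sign, and 15 could not change when *Sox5* was joined with the gene upstream. With annotated transcripts only, 2 instead of 4 of the 6 genes were called for NPCs against MSCs and 1 instead of 5 with IGF-1 against MSCs. The genes called in all fell from 2951 to 1199 and from 3044 to 1504, and with a pseudocount of 1 to 1716 and 1755. Direction turned for *Sox5* in NPCs against MSCs (−0.21) and *Ret* with IGF-1 against NPCs (−0.53) on annotated transcripts only. Between the induced groups *Sox5* turned to −0.8 and *Snai1* to −0.52 with intronic transcripts added, and *Sox5* to −0.11 over a fixed length and to −0.31 when joined with the gene upstream; none of these was called, and the cause was not tested.

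Between the induced groups the 3 genes called became 5 with no filter and 5 without the trend, 19 with annotated transcripts only, 23 with intronic transcripts and 9 with genes of every length. They were 1 to 10 when each library was left out. With the replicate number as a block 1 gene was called. Libraries of the same number did not deviate together, with correlations of −0.0955 to 0.103, and the block changed no call of the 6 genes. Leaving out each library gave 3 to 4 of the 6 genes called for NPCs against MSCs, 5 each time with IGF-1 against MSCs, and 0 between the induced groups. A filter at 1 FPKM left *Ednrb* untested in NPCs against MSCs and *Ret* with IGF-1 against MSCs. Few implied reads limit *Sox8* in all libraries and *Ret* and *Ednrb* in MSCs.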
